A study of Mus musculus with 8 samples.

Results

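Integrins are cell surface receptors made of 1 alpha and 1 beta chain that tie a cell to the surrounding matrix or to another cell. Expression was given as FPKM, which divides the fragments of a gene by the length of its transcript and by the size of the library. All genes whose name begins with Itga or Itgb were taken, which gave 31 of 55679 genes. Of these, 18 code for alpha chains, 9 for beta chains, and 4 carry the name without being a chain (Itgb1bp1, Itgb1bp2, Itgb3bp and Itgbl1). The libraries came from left ventricles of male wild-type C57BL/6J mice, 4 given angiotensin II (ANG II), a hormone of the renin-angiotensin system that constricts vessels, at 1500 ng/kg/min for 7 days by osmotic pump and 4 given saline for the same time (control). Hearts were flushed with saline before collection, the ages of the mice are not given in the sources used here, and the labels number the 4 libraries of a group without saying that each is a separate mouse. Each library held 14455741 to 16564934 fragments, read back from the steps of the values.

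The alpha chain largely sets the ligand of an integrin, and the beta chain carries most of the contacts with talin, kindlin and the actin skeleton. Chains that pair with beta 1 and those that pair with alpha V bind matrix proteins such as collagen, laminin, fibronectin and vitronectin, many of them through the short sequence Arg-Gly-Asp (RGD). The beta 2 and beta 7 chains, with their alpha partners, are found on leukocytes and bind cell surface ligands. In the heart, alpha 7 with beta 1 is the main laminin receptor of cardiomyocytes, while alpha 11 with beta 1 is a receptor of fibroblasts for fibrillar collagen, and some alpha V integrins release active TGF-beta from its latent complex. The 27 chains were therefore read in a matrix class (12 alpha and 6 beta chains) and a leukocyte class (6 alpha and 3 beta chains).

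RefSeq promoters (GRCm38.p6) were found for 22 of the 31 genes, and 9 of the 22 had no annotated exon in the 150 bases before the start. The 6 shown here belong to members of both classes that rose in ANG II, so that the sequence ahead of a leukocyte chain can be read beside that of widely expressed chains. Each is the stretch of 150 bases before the start site, 5′ to 3′ on the strand of the gene, and capitals mark letters searched on both strands: GAGGAA (the core of PU.1 sites), GGGCGG (Sp box), TGTGGT (RUNX core), CAGACA (SMAD core) and CATTCC (TEAD core), each also as its reverse complement.
Itgam, chr7:128062490-128062639, + strand: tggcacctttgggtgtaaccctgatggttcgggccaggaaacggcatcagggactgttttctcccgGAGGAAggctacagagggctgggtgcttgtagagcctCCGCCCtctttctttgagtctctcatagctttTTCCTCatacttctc
Itga4, chr2:79255276-79255425, + strand: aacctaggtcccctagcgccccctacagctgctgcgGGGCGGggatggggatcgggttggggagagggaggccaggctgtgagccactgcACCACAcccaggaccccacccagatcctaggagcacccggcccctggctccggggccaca
Itga5, chr15:103366792-103366941, - strand: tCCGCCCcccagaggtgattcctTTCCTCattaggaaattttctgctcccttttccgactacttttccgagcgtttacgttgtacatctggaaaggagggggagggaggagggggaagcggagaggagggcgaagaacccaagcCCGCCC
Itgav, chr2:83724247-83724396, + strand: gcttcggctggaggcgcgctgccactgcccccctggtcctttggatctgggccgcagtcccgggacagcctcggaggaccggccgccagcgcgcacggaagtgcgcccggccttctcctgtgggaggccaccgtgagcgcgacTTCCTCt
Itgb1, chr8:128685504-128685653, + strand: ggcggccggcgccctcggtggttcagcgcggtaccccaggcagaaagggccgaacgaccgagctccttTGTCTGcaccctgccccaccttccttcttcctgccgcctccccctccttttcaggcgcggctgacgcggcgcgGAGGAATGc
Itgb5, chr16:33829515-33829664, + strand: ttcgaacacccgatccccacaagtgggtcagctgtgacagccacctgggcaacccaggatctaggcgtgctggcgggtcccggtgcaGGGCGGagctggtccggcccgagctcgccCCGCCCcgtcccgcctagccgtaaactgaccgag
Itgam, the alpha chain of the macrophage and neutrophil receptor CD11b/CD18, held GAGGAA on both strands of its window. The PU.1 core also stood in the windows of Itga5, Itgav and Itgb1, and in Itgb1 it overlapped the TEAD core. Over 300 bases (250 before to 50 after the start), the PU.1 core was in 8 of the 22 promoters and in 28.3% of all 32851 promoters of the table. Sp boxes were in 9 of 22 (35.7% of all), SMAD cores in 8 (21.04%), RUNX cores in 2 (16.8%), TEAD cores in 2 (14.7%) and the AP-1 motif TGANTCA in 2 (7.81%). A CArG box was in 0 of 22 and in 1.63% of all promoters. These matches describe letters in a window and were not tested against the expression values.

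Of the 31 genes, 29 reached a mean of 0.1 FPKM and were tested with limma on log2(FPKM + 1). A gene was called when its Benjamini-Hochberg adjusted p over all 19364 genes tested fell below 0.05 and the log2 fold change exceeded 0.5 in either direction. By this rule 16 integrin-named genes were called, 15 higher and 1 lower in ANG II. That is 55.2% of those tested, where 15.4% of all tested genes were called (14% higher and 1.41% lower). By adjusted p alone, 20 passed, where 33.3% of all genes did. The groups did not overlap at 20 of the 29 genes, 18 of them higher and 2 lower, against 33.7% of all genes tested (28.7% higher and 5.06% lower). Of 17 alpha chains tested, 8 were higher and 0 lower. Of 8 beta chains, 6 were higher and 1, Itgb6, was lower. The median log2 fold change of the 29 genes was 0.58, beside 0.15 over all genes tested. The median over all genes tested depended on scaling, filter and pseudocount, at 0.0040 with median-of-ratios scaling, 0.0527 without a filter and 0.22 with a pseudocount of 0.1. In bulk tissue, more cells of a type and more RNA per cell cannot be told apart, and this holds for every value given here.

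**Figure D1:**
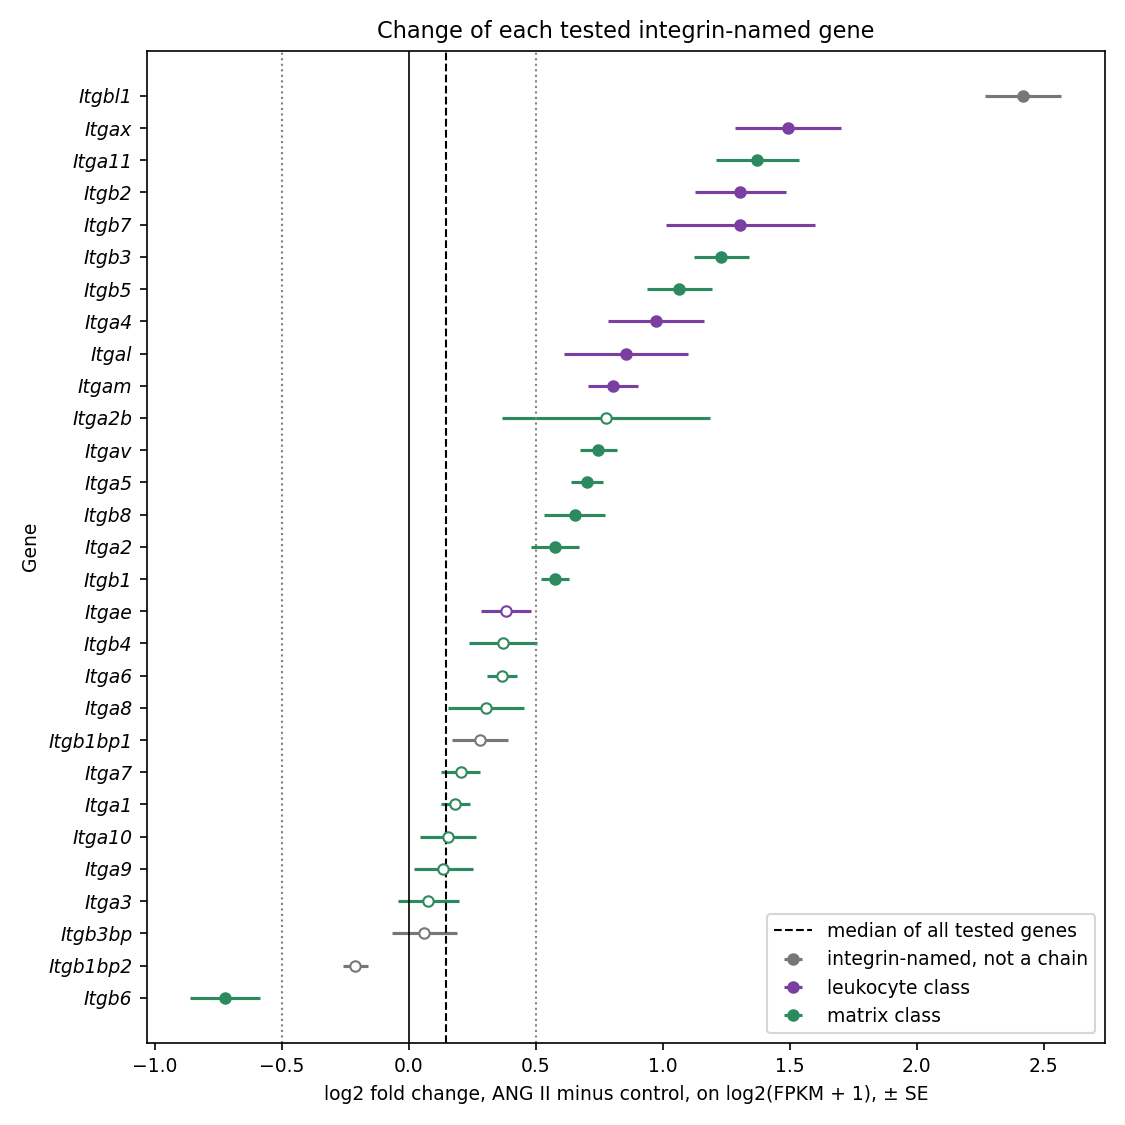
Log2 fold change (ANG II minus control, on log2(FPKM + 1)) of the 29 tested genes with its standard error; filled points were called, dotted lines mark the fold threshold of 0.5 and the dashed line the median of all tested genes. Itgbl1 stands farthest to the right at 2.42, and Itgb6 is the only filled point to the left of 0, at -0.72.

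Among the matrix alpha chains, 4 of 12 were called higher, beside 14% of all genes, and they came from the collagen and RGD receptors. The groups did not overlap, with ANG II higher, at 6 of the 12 (28.7% of all genes), the 4 called genes and Itga1 and Itga6; of the 4, Itga2 and Itga5 lost their call with median-of-ratios scaling. Itga11 (chr9:62677826-62783982, GRCm38), which binds fibrillar collagen and marks fibroblasts, was at 1.17, 1.37, 0.843 and 1.43 FPKM in control 1 to 4 and at 5.26, 5.63, 3.12 and 5.07 FPKM in ANG II 1 to 4. Every ANG II library lay above every control library, with ANG II 3 the lowest of its group. The mean went from 1.20 ± 0.264 to 4.77 ± 1.12 FPKM (SD, n = 4 each), 3.96-fold, with a log2 fold change of 1.37 (SE 0.165; limma, Benjamini-Hochberg adjusted p = 2.30e-04). Itga2 (chr13:114833081-114932100), a collagen receptor best known from platelets and epithelia, was low throughout, at 0.255 to 0.397 FPKM in control and 0.859 to 1.17 FPKM with ANG II. It rose 3.07-fold without overlap, and its log2 fold change of 0.58 (SE 0.0946; limma, Benjamini-Hochberg adjusted p = 0.00130) is compressed by the pseudocount of 1, since voom on recovered fragments gave 1.601. Its call was lost with median-of-ratios scaling (0.49) and with quantile normalization (0.42).

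The other collagen receptors were not called. Itga1 (chr13:114953096-115101964), which prefers the collagen of basement membranes, was at 26.9, 25.7, 27.9 and 26.1 FPKM in control 1 to 4 and at 33.0, 29.8, 29.1 and 29.8 FPKM in ANG II 1 to 4. These groups did not overlap either, but the log2 fold change of 0.18 (SE 0.0565; limma, Benjamini-Hochberg adjusted p = 0.0311) lay close to the median of all genes, and its sign turned with median-of-ratios scaling (-0.04) and quantile normalization (-0.02). Itga10 (chr3:96645584-96664519), known from cartilage, was at 0.663 ± 0.167 and 0.850 ± 0.14 FPKM (SD, n = 4 each; log2 fold change 0.16). In Itga10, 33.5% of the exon length lies under a second gene on the same strand, Gm42957, which was at no more than 0.0189 FPKM. Within a library, the ratio of Itga11 to Itga1 was 0.0302 to 0.0547 in control and 0.107 to 0.189 in ANG II, a log2 difference of 1.79 (SE 0.267). The exact two-sided permutation p was 0.0286, the smallest that 4 against 4 libraries allow, and 0.0857 after Benjamini-Hochberg adjustment over the 9 ratios compared.

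The RGD receptors gave 2 calls of 4, where 15.4% of all genes were called. Itga5 (chr15:103344286-103366763), the fibronectin receptor chain, was at 27.7, 25.6, 30.4 and 26.9 FPKM in control 1 to 4 and at 48.6, 45.7, 44.2 and 43.7 FPKM in ANG II 1 to 4. Its mean rose 1.65-fold, from 27.6 ± 2.01 to 45.6 ± 2.24 FPKM (SD, n = 4 each; log2 fold change 0.70, SE 0.0632; limma, Benjamini-Hochberg adjusted p = 4.92e-05), and with median-of-ratios scaling the log2 fold change of 0.48 fell short of the threshold. Itgav (chr2:83724397-83806916), the alpha V chain that pairs with beta 1, 3, 5, 6 and 8, was at 15.1, 14.9, 13.9 and 16.4 FPKM in control 1 to 4 and at 26.0, 26.9, 23.2 and 27.8 FPKM in ANG II 1 to 4. The lowest ANG II library was thus well above the highest control library, and the mean rose 1.72-fold (log2 fold change 0.75, SE 0.0742; limma, Benjamini-Hochberg adjusted p = 8.34e-05). Itga8 (chr2:12106632-12301922), the nephronectin receptor chain, was not called, at 3.33 to 5.53 FPKM in control and 5.13 to 6.60 FPKM with ANG II.

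Itga2b (chr11:102453297-102470122), the alpha IIb chain of platelets and megakaryocytes, was at 1.32, 2.05, 1.42 and 1.66 FPKM in control 1 to 4 and at 2.51, 11.6, 1.98 and 1.98 FPKM in ANG II 1 to 4. ANG II 2 alone was far above the rest, the groups overlapped, and the gene was not called (log2 fold change 0.78, SE 0.410; limma, Benjamini-Hochberg adjusted p = 0.178). Without ANG II 2 its log2 fold change was 0.28. The 9 platelet markers summed to 24.4, 29.1, 20.96 and 21.1 FPKM in control 1 to 4 and to 47.0, 78.4, 52.0 and 34.7 FPKM in ANG II 1 to 4. Their sum was highest in the same library, where the platelet chemokine gene Ppbp was at 15.5 FPKM against 0.751 to 1.95 FPKM in the other ANG II libraries. Most of the sum was Pf4, at 16.5 to 22.4 FPKM in control and 31.0 to 54.5 FPKM with ANG II. Of the platelet markers above 0, only Gp1ba did not peak in ANG II 2, at 1.40 FPKM there and 1.98 FPKM in ANG II 4. Of the 7 platelet markers tested 1 was called, Pf4 (log2 fold change 1.11), a share near the 15.4% of all genes called, and Gp1bb, which defines platelets, was listed at 0 in all libraries, a value not read here as its expression. The part of platelet RNA in the Itga2b values was not tested.

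None of the 3 laminin receptor chains was called, a count that says little where 15.4% of all genes were called. Itga7 (chr10:128933818-128958282), the muscle laminin receptor, was at 49.4, 58.4, 49.98 and 46.6 FPKM in control 1 to 4 and at 55.5, 63.7, 61.2 and 55.4 FPKM in ANG II 1 to 4, with overlapping groups (log2 fold change 0.20, SE 0.0771; limma, Benjamini-Hochberg adjusted p = 0.0683). Itga6 (chr2:71745616-71858416), a laminin receptor of endothelium and epithelium, was at 44.2 to 48.1 FPKM in control and 55.9 to 65.1 FPKM with ANG II. These 2 ranges did not meet, and the gene passed the p threshold but not the fold threshold (log2 fold change 0.37, SE 0.0594; limma, Benjamini-Hochberg adjusted p = 0.00124). With median-of-ratios scaling the log2 fold change was 0.14 (limma, Benjamini-Hochberg adjusted p = 0.152), and with quantile normalization it was 0.20. Itga3 (chr11:95044474-95076801) was at 4.62 ± 0.732 and 4.92 ± 0.645 FPKM (SD, n = 4 each). The remaining matrix alpha chain, Itga9 (chr9:118606690-118901003), a receptor for tenascin C and osteopontin, had the highest mean FPKM of the alpha chains, at 55.2 ± 7.97 and 60.6 ± 7.78 FPKM (SD, n = 4 each), with libraries that overlapped those of Itga7 and Itga6 in both groups, and was not called. The small positive log2 fold changes of Itga3 (0.08) and Itga9 (0.13) turned negative under all 3 other scalings, and that of Itga7 with median-of-ratios scaling alone.

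**Figure D2:**
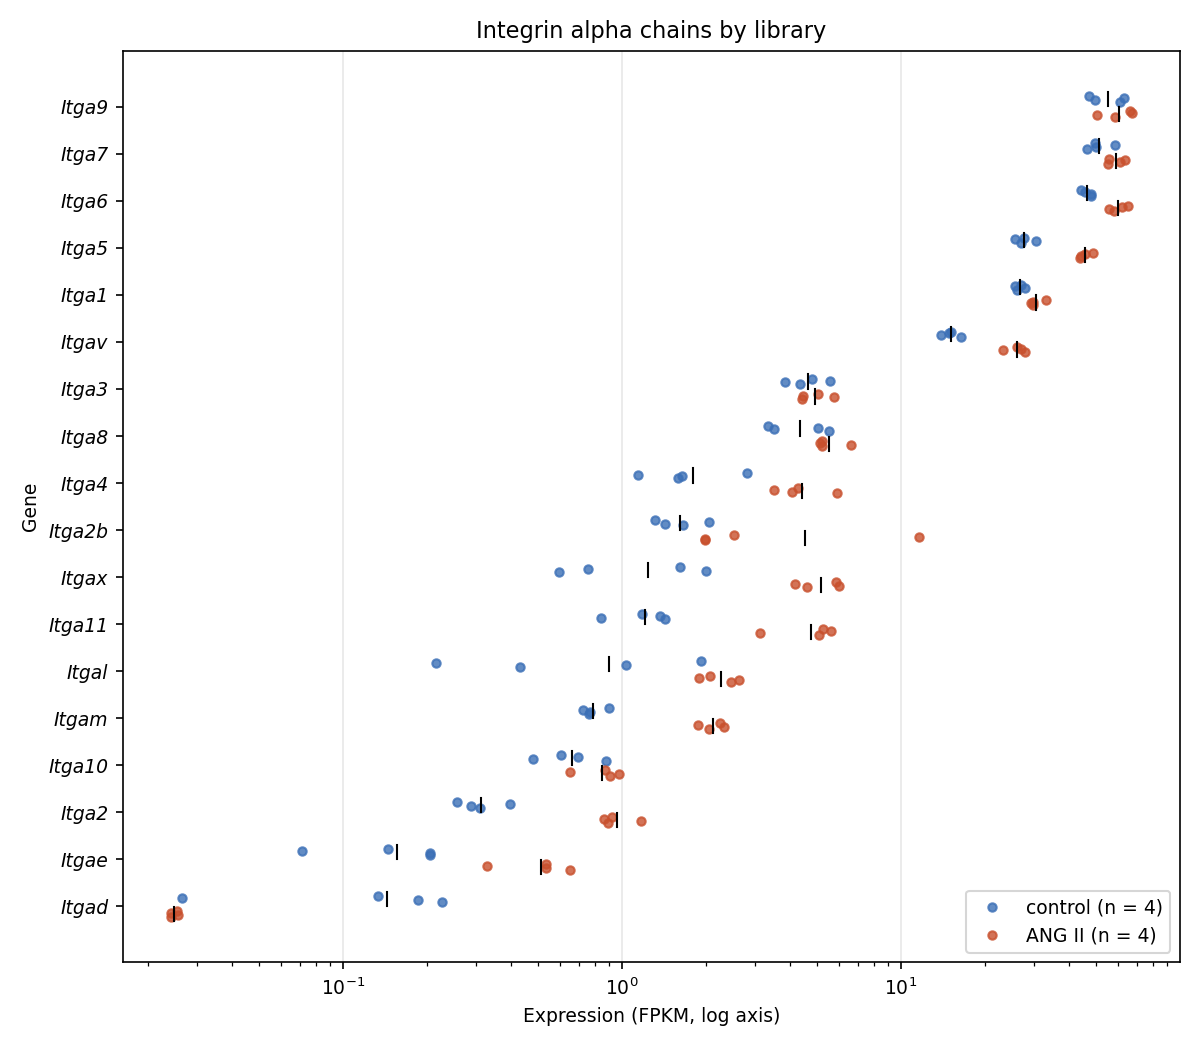
Expression of the 18 alpha chains in each library (FPKM, log axis), ordered by control mean; points are libraries and vertical ticks group means (n = 4 each). Itga9, Itga7 and Itga6 lead in both groups, Itga2b has 1 ANG II library far to the right at 11.6 FPKM, and Itgad lies to the left in ANG II, where each library, like control 2, held 1 fragment.

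Of the 6 matrix beta chains, 4 were called higher and 1 lower, beside 14% and 1.41% of all genes; 2 of the 4, Itgb1 and Itgb8, lost the call under other scalings. Itgb1 (chr8:128685654-128733200), the common partner of the collagen, laminin and fibronectin receptor chains, was the most abundant gene of the set, at 271, 297, 272 and 274 FPKM in control 1 to 4 and at 446, 421, 400.2 and 395 FPKM in ANG II 1 to 4. It rose 1.49-fold, from 279 ± 12.5 to 416 ± 23.4 FPKM (SD, n = 4 each; log2 fold change 0.57, SE 0.0554; limma, Benjamini-Hochberg adjusted p = 7.22e-05). The groups were far apart for their spread, but the size of the change was near the threshold and depended on scaling: the log2 fold change was 0.35 with median-of-ratios scaling, 0.44 with quantile normalization and 0.43 after rescaling without mitochondrially encoded genes and the 10 most abundant genes, none of them called. Itgb4 (chr11:115974709-116008412), the beta chain of hemidesmosomes, was at 0.708 ± 0.291 and 1.19 ± 0.118 FPKM (SD, n = 4 each) and was not called, although its groups did not overlap, and voom on recovered fragments did call it (log2 fold change 0.87; limma voom, Benjamini-Hochberg adjusted p = 0.0229). Its log2 fold change was 0.26 with median-of-ratios scaling and 0.17 with quantile normalization, with limma Benjamini-Hochberg adjusted p of 0.188 and 0.407.

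Besides Itgb1, alpha V pairs with 4 further beta chains, of which 3 were called higher and 1 lower, beside 14% and 1.41% of all genes. Itgb5 (chr16:33829665-33949338), the vitronectin receptor chain, was at 78.7, 85.6, 63.8 and 87.1 FPKM in control 1 to 4 and at 179, 179, 129 and 179.9 FPKM in ANG II 1 to 4. Even ANG II 3, which lay apart from its group, was above the highest control library, and the mean rose 2.11-fold from 78.8 ± 10.6 to 166 ± 25.3 FPKM (SD, n = 4 each; log2 fold change 1.07, SE 0.128; limma, Benjamini-Hochberg adjusted p = 2.32e-04). Itgb3 (chr11:104608000-104670476), which pairs with alpha V and in platelets with alpha IIb, was at 0.763, 0.836, 0.594 and 0.836 FPKM in control 1 to 4 and at 3.35, 3.51, 2.97 and 2.70 FPKM in ANG II 1 to 4. The mean rose 4.13-fold (log2 fold change 1.23, SE 0.108; limma, Benjamini-Hochberg adjusted p = 4.27e-05), and voom on recovered fragments gave a log2 fold change of 2.05. Unlike Itga2b, Itgb3 was not set apart in ANG II 2.

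Itgb8 (chr12:119158022-119238802), whose heterodimer with alpha V binds latent TGF-beta, was at 0.765, 0.543, 0.428 and 0.832 FPKM in control 1 to 4 and at 1.40, 1.78, 1.38 and 1.74 FPKM in ANG II 1 to 4. It rose 2.45-fold without overlap (log2 fold change 0.65, SE 0.118; limma, Benjamini-Hochberg adjusted p = 0.00229) and lost its call with quantile normalization (0.44). Itgb6 (chr2:60598292-60722643), an epithelial beta chain whose heterodimer with alpha V also binds latent TGF-beta, was at 9.15, 10.95, 8.48 and 7.17 FPKM in control 1 to 4 and at 4.16, 6.14, 5.22 and 4.52 FPKM in ANG II 1 to 4. Every ANG II library was below every control library. Its mean went from 8.94 ± 1.57 to 5.01 ± 0.872 FPKM (SD, n = 4 each), which is 0.561 of control, and its log2 fold change of -0.72 (SE 0.138; limma, Benjamini-Hochberg adjusted p = 0.00300) lay between -1.02 and -0.63 over 18 alternatives, called in all of them. The 5 markers of the mesothelium, the epithelium on the heart surface, summed to 6.14 to 7.69 FPKM in control and 5.83 to 9.26 FPKM with ANG II, and 0 of 5 were called by limma, a count that says little where 15.4% of all genes were called (the most abundant in control, Wt1, was at 3.78 ± 0.778 and 4.65 ± 1.42 FPKM, SD, n = 4 each). Within a library, the ratio of Itgb3 to Itgb5 was 0.00931 to 0.00976 in control and 0.0150 to 0.0231 in ANG II, a log2 difference of 0.98 (SE 0.129; exact two-sided permutation p = 0.0286, adjusted p = 0.0857 over the 9 ratios). The difference did not pass the threshold after adjustment, and with a pseudocount of 1 on both genes it was 0.17.

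**Figure D3:**
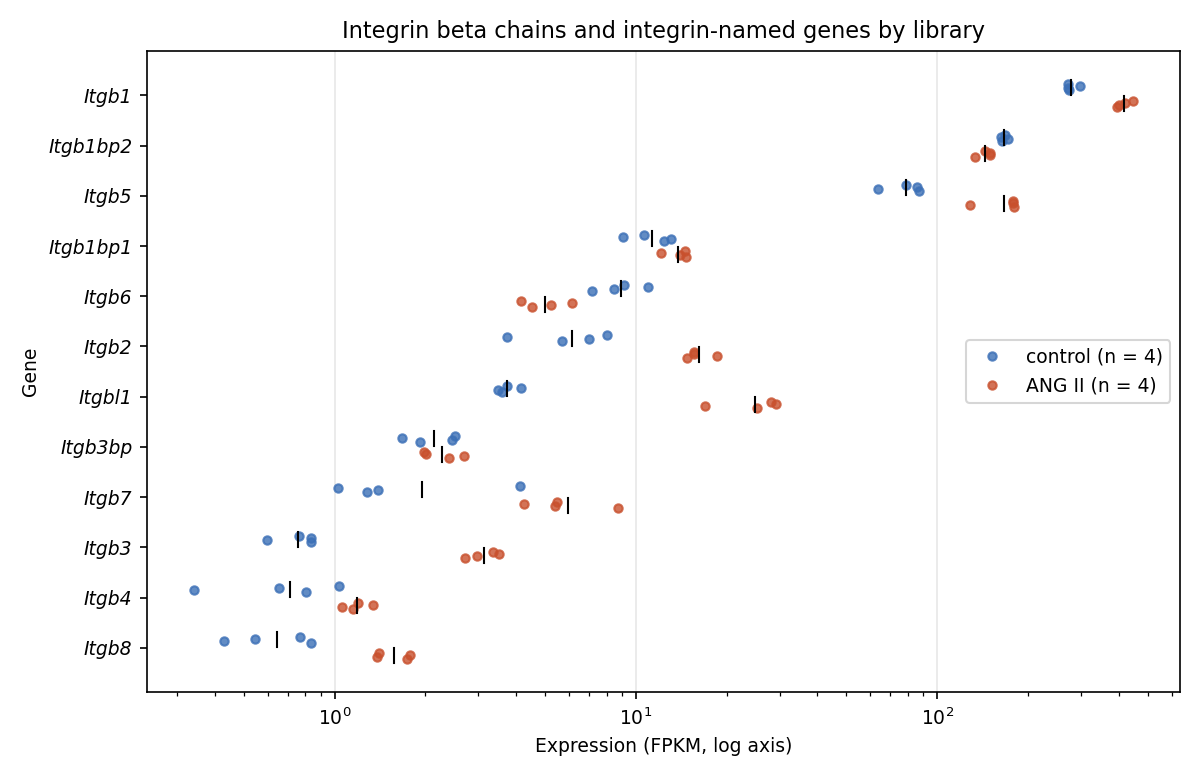
Expression of 8 beta chains and the 4 integrin-named genes in each library (FPKM, log axis); points are libraries and vertical ticks group means (n = 4 each). Itgb2l, at 0 in 6 libraries, is not drawn. Itgb6 and Itgb1bp2 are the only genes whose ANG II libraries all lie to the left of control, and Itgb5 shows ANG II 3 at 129 FPKM apart from its group.

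In the leukocyte class, 6 of 7 tested chains rose and 0 fell, with a median log2 fold change of 0.97, beside 14% of all genes called higher and a median of 0.15. One of the 6, Itgal, lost its call in 7 of 18 alternatives. Itgb2 (chr10:77530252-77565708), CD18, the beta chain shared by the leukocyte receptors LFA-1, CD11b/CD18 and CD11c/CD18, was at 8.04, 3.73, 7.01 and 5.67 FPKM in control 1 to 4 and at 15.5, 15.6, 18.6 and 14.8 FPKM in ANG II 1 to 4. It rose 2.64-fold, from 6.11 ± 1.86 to 16.1 ± 1.70 FPKM (SD, n = 4 each; log2 fold change 1.31, SE 0.179; limma, Benjamini-Hochberg adjusted p = 4.71e-04). Ptprc, which codes for CD45 on nearly all leukocytes, went from 7.55 ± 2.50 to 21.2 ± 3.21 FPKM (SD, n = 4 each). The ratio of Itgb2 to Ptprc was 0.697 to 0.962 in control and 0.595 to 0.901 in ANG II, with a log2 difference of -0.08 (SE 0.168; exact two-sided permutation p = 0.657, adjusted p = 0.771 over the 9 ratios). The rise of Itgb2 and that of Ptprc were not told apart at this number of libraries.

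The alpha partners of beta 2 lie together on chromosome 7. Itgax (chr7:128129547-128150657), CD11c, typical of dendritic cells and some macrophages, was at 1.62, 0.756, 2.00 and 0.595 FPKM in control 1 to 4 and at 5.83, 4.16, 6.02 and 4.60 FPKM in ANG II 1 to 4. It rose 4.14-fold (log2 fold change 1.49, SE 0.211; limma, Benjamini-Hochberg adjusted p = 5.64e-04), the largest log2 fold change among the 25 chains tested. Itgam (chr7:128062640-128118491), CD11b, of monocytes, macrophages and neutrophils, was at 0.901, 0.723, 0.765 and 0.759 FPKM in control 1 to 4 and at 2.25, 1.88, 2.33 and 2.05 FPKM in ANG II 1 to 4. It rose 2.70-fold (log2 fold change 0.81, SE 0.0981; limma, Benjamini-Hochberg adjusted p = 2.48e-04), while voom on recovered fragments gave 1.42. Another gene on the same strand, Gm49368, covers 68.7% of the exon length of Itgam, so that the authors' counting could split or drop reads there and the level of Itgam is uncertain. Gm49368 itself was at 0 to 0.0229 FPKM in control and 0.0238 to 0.0999 FPKM with ANG II.

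Itgal (chr7:127296260-127335138), CD11a, of T cells and other lymphocytes, was at 1.93, 0.216, 1.03 and 0.429 FPKM in control 1 to 4, from 106, 12, 65 and 25 fragments. In ANG II 1 to 4 it was at 2.06, 1.89, 2.62 and 2.45 FPKM, from 119, 115, 151 and 149 fragments. Control 1 lay inside the ANG II range, so the groups overlapped, and the call (log2 fold change 0.86, SE 0.245; limma, Benjamini-Hochberg adjusted p = 0.0228) was lost in 7 of 18 alternatives, with adjusted p up to 0.0976. Without control 2 the adjusted p was 0.0506, without control 4 it was 0.0643, without ANG II 3 it was 0.0558 and without ANG II 4 it was 0.0539 (limma, Benjamini-Hochberg). Without control 1 the log2 fold change was 1.09 with a limma Benjamini-Hochberg adjusted p of 0.00255. The 12 T and NK cell markers summed to 14.9 FPKM in control 1, to 3.34 to 8.29 FPKM in the other control libraries and to 11.3 to 23.3 FPKM in ANG II. Control 1 was the highest control library by both measures, and the part of T cell RNA in the Itgal values was not tested. Itgad (chr7:128154376-128223816), CD11d, was not tested: its libraries held 5, 1, 8 and 9 fragments in control 1 to 4 and 1 fragment in each ANG II library. The 23 and 4 fragments give a ratio of 0.170 for ANG II over control, with an exact 95% interval of 0.0428 to 0.499 that covers counting error only, and 19.7% of its 50-base words are shared with Itgax.

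The alpha 4 and beta 7 chains, which pair with each other on gut-homing lymphocytes, both rose. Itga4 (chr2:79255426-79333123), which also pairs with beta 1 to bind VCAM1, was at 2.81, 1.14, 1.64 and 1.59 FPKM in control 1 to 4 and at 4.26, 3.50, 4.06 and 5.92 FPKM in ANG II 1 to 4 (log2 fold change 0.97, SE 0.190; limma, Benjamini-Hochberg adjusted p = 0.00346). Itgb7 (chr15:102215995-102231944) was at 4.13, 1.02, 1.39 and 1.28 FPKM in control 1 to 4 and at 5.46, 4.25, 5.40 and 8.71 FPKM in ANG II 1 to 4. It rose 3.04-fold (log2 fold change 1.31, SE 0.293; limma, Benjamini-Hochberg adjusted p = 0.00707). For both chains control 1 was the highest of the control libraries and ANG II 4 the highest of all, and the groups did not overlap. Itgae (chr11:73090583-73147446), CD103, the other partner of beta 7 and a receptor for E-cadherin, was at 0.0714 to 0.205 FPKM in control and 0.327 to 0.653 FPKM with ANG II. Without overlap between groups, it passed the p threshold but not the fold threshold (log2 fold change 0.38, SE 0.0980; limma, Benjamini-Hochberg adjusted p = 0.0135), and it was called with a pseudocount of 0.1 and with voom (1.70). Quantile normalization gave 0.27 with a limma Benjamini-Hochberg adjusted p of 0.0608, past neither threshold. Itgb2l (chr16:96422288-96443619), a gene like Itgb2, had 1 fragment in control 1, 1 in ANG II 2 and 0 elsewhere, where a count of 0 allows up to 3 fragments.

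The leukocyte chains rose beside markers of several leukocyte types, though of 6 B cell markers 1 was called higher, near the share over all genes: Ighm (0.92), also the most abundant in control. The counts of called markers stand beside 14% of all genes called higher. Of 15 macrophage markers 12 were called higher and 0 lower, and their sum was 335 to 415 FPKM in control and 722 to 1000.05 FPKM with ANG II (Lyz2, the most abundant in control, at 133 ± 18.6 and 276 ± 60.2 FPKM, SD, n = 4 each). Cx3cr1 and Cd68 had the largest log2 fold changes among them, 1.70 and 1.71. The 3 macrophage markers not called were Cd163 (0.43), whose groups did not overlap, and Lyve1 (0.05) and Timd4 (-0.45), whose groups overlapped. Timd4 was at 1.32 ± 0.568 FPKM in control and 0.681 ± 0.298 FPKM with ANG II (SD, n = 4 each). Of 9 monocyte and dendritic cell markers 6 were higher, with sums of 15.2 to 25.7 and 33.4 to 49.9 FPKM, led by Ccr2 (2.01) and Plac8 (1.65), while Zbtb46, the most abundant in control, was at 11.2 ± 1.496 and 11.8 ± 1.55 FPKM (SD, n = 4 each). Of 10 neutrophil markers 5 could be tested and 4 were higher, with sums of 2.76 to 6.79 and 8.72 to 22.1 FPKM, led by S100a9 (1.49) and Csf3r (1.17), and Elane was at 0 in all libraries. Of these 4, the groups overlapped at S100a9, which held 8 to 22 fragments in control, and at Retnlg. They did not overlap at Csf3r and S100a8. Of the 11 T and NK cell markers tested 3 were higher, Nkg7 (1.24), Trac (1.03) and Cd4 (0.71), the most abundant in control at 1.19 ± 0.466 FPKM (SD, n = 4). Of these 3, the groups did not overlap at Cd4 and overlapped at Nkg7 and Trac. The share of these cells in the rise of the leukocyte chains was not tested.

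**Figure D4:**
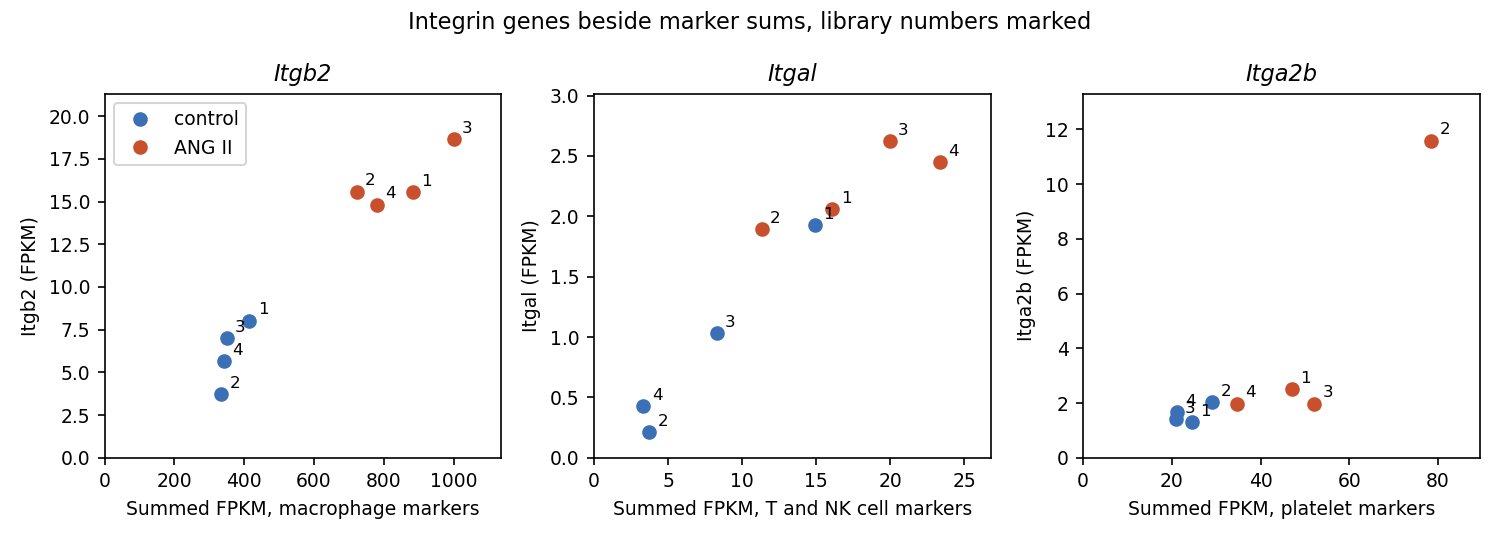
Itgb2, Itgal and Itga2b (FPKM, vertical axes) against the summed FPKM of macrophage, T and NK cell, and platelet markers (horizontal axes) in each library; numbers are replicate numbers. For Itgal, control 1 sits beside the ANG II libraries on both axes, and for Itga2b, ANG II 2 is highest on both.

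Within a library, none of the 3 other ratios of leukocyte chains passed the test. The ratio of Itgam to Itgb2 was 0.137 ± 0.0393 in control and 0.132 ± 0.0114 with ANG II (SD, n = 4 each; log2 difference -0.02, SE 0.201; exact two-sided permutation p = 1). The ratio of Itgal to Itgam had a log2 difference of 0.34 (SE 0.640; exact permutation p = 0.686), and the control libraries ranged from 0.298 to 2.14. The ratio of Itgax to Itgam was 0.783 to 2.62 in control and 2.22 to 2.59 in ANG II (log2 difference 0.78, SE 0.394; exact permutation p = 0.143, adjusted p = 0.214 over the 9 ratios). All 3 carry the uncertain level of Itgam.

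Among the 4 genes that are integrin-named but not chains, 1 was called, where 15.4% of all genes were. Itgbl1 (chr14:123659971-123975618) codes for a secreted protein with repeats like those in the stalk of beta chains and no membrane anchor. It was at 3.73, 4.17, 3.49 and 3.599 FPKM in control 1 to 4 and at 28.1, 29.1, 17.0 and 25.3 FPKM in ANG II 1 to 4. The mean rose 6.64-fold, from 3.75 ± 0.298 to 24.9 ± 5.50 FPKM (SD, n = 4 each; log2 fold change 2.42, SE 0.150; limma, Benjamini-Hochberg adjusted p = 6.39e-06), the largest change of the 29 genes. ANG II 3 was the lowest of its group for Itgbl1, as it was for Itga11, Itgb5 and Itgav.

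Itgb1bp2 (chrX:101449088-101453541), melusin, a muscle protein that binds the tail of beta 1, was at 168, 163, 172 and 165 FPKM in control 1 to 4 and at 144, 149.7, 149.8 and 134 FPKM in ANG II 1 to 4. All ANG II libraries were below control, at 0.864 of the control mean, and the gene passed the p threshold but not the fold threshold (log2 fold change -0.21, SE 0.0493; limma, Benjamini-Hochberg adjusted p = 0.00853). Under other scalings the log2 fold change was -0.44 (median of ratios), -0.41 (quantile) and -0.36 (without mitochondrially encoded and the most abundant genes). The 10 cardiomyocyte markers summed to 50529.9 to 51433 FPKM in control and 38878 to 41942 FPKM with ANG II, with 2 of 10 called lower, beside 1.41% of all genes (Tnni3 at -0.58 and Myh6 at -0.55 on the log2 scale), and Myl2, the most abundant in control, at -0.48. The groups did not overlap at 6 of the 10 with ANG II lower (5.06% of all genes) and at 1, Tnnc1 (0.13), with ANG II higher, and Mybpc3 (0.20) and Ryr2 (0.05) were also above 0. Itgb1bp1 (chr12:21240825-21286284), ICAP-1, which binds the tail of beta 1 and holds it inactive, was at 11.3 ± 1.79 and 13.8 ± 1.18 FPKM (SD, n = 4 each), and Itgb3bp (chr4:99765402-99929813), a kinetochore protein, at 2.14 ± 0.411 and 2.27 ± 0.340 FPKM. Neither was called, and the sign of Itgb3bp turned under all 3 other scalings.

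FPKM is scaled by transcript length, so levels of different chains can be set side by side, though the divisor here matched the mean length of all annotated transcripts of a gene, short ones included. The order depends on it: Itga7, divided by 2759 bases, held 1966 to 2353 fragments in control, more than Itga9, divided by 1894 bases, with 1290 to 1765. By mean FPKM in control, the order of the alpha chains was Itga9, Itga7, Itga6, Itga5, Itga1 and Itgav, then Itga3 and Itga8, with the others at 1.79 FPKM or less on average. Neighbours in this order overlapped between Itga9, Itga7 and Itga6, between Itga5 and Itga1, and between Itga3 and Itga8, while Itga6 and Itga5, Itga1 and Itgav, and Itgav and Itga3 did not overlap. Among the beta chains the control order was Itgb1, Itgb5, Itgb6, Itgb2, Itgb7, Itgb3, Itgb4 and Itgb8, where Itgb6 overlapped Itgb2, Itgb2 overlapped Itgb7, and Itgb3, Itgb4 and Itgb8 overlapped each other. With ANG II, Itgb2 (14.8 to 18.6 FPKM) lay above Itgb6 (4.16 to 6.14 FPKM), while Itgb7 (4.25 to 8.71 FPKM) overlapped it. The 9 beta chains summed to 377 ± 19.1 FPKM in control and 615 ± 39.6 FPKM with ANG II, a ratio of 1.63, and the 18 alpha chains to 239.9 ± 9.34 and 318 ± 17.3 FPKM, a ratio of 1.32 (SD, n = 4 each). Summed beta over summed alpha chain expression was 1.5002 to 1.63 in control and 1.88 to 1.99 in ANG II.

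Shares within a chain class do not depend on a scaling that multiplies a whole library by 1 factor; quantile normalization is not of that kind. Itgb1 made up 72.5 to 76.8% of summed beta chain FPKM in control and 64.9 to 71.0% in ANG II. Itgb6 went from 1.90 to 2.73% to 0.634 to 0.970%, and Itgb5 from 18.0 to 23.1% to 22.8 to 29.6%, where ANG II 3 overlapped control. Among alpha chains, the RGD receptors took 18.9 to 20.8% in control and 25.0 to 26.7% in ANG II, without overlap. Laminin receptors took 40.7 to 43.6% and 38.1 to 41.0%, and collagen receptors 11.2 to 12.6% and 11.01 to 12.2%, both with overlap. Itga9 and Itga1 took smaller shares in every ANG II library than in any control library, 16.9 to 20.1% against 20.5 to 25.1% for Itga9 and 8.88 to 10.01% against 10.2 to 11.8% for Itga1. Leukocyte chains took 1.18 to 3.27% of summed chain FPKM in control and 3.27 to 4.59% in ANG II, where control 1 at 3.271% was just above ANG II 2 at 3.269%. These shares are given as descriptions, with no test.

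The ratio of a chain to its partner could be read within a library for 3 partners of beta 1. Itga7 to Itgb1 was 0.182, 0.196, 0.184 and 0.170 in control 1 to 4 and 0.124, 0.151, 0.153 and 0.140 in ANG II 1 to 4. Every ANG II library was lower, with a log2 difference of -0.37 (SE 0.0807; exact two-sided permutation p = 0.0286, adjusted p = 0.0857 over the 9 ratios). Itga5 to Itgb1 was 0.0861 to 0.112 in control and 0.109 to 0.111 in ANG II (log2 difference 0.15, SE 0.0780; exact permutation p = 0.143), and Itgav to Itgb1 was 0.04998 to 0.0601 and 0.0579 to 0.0705 (log2 difference 0.21, SE 0.0905; exact permutation p = 0.0857). Of the 9 ratios 0 passed 0.05 after adjustment, and 3 reached the smallest p that this design allows. At least 6 of the 9 would have had to reach it for any to pass, so the adjusted threshold was close to out of reach in this design.

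**Figure D5:**
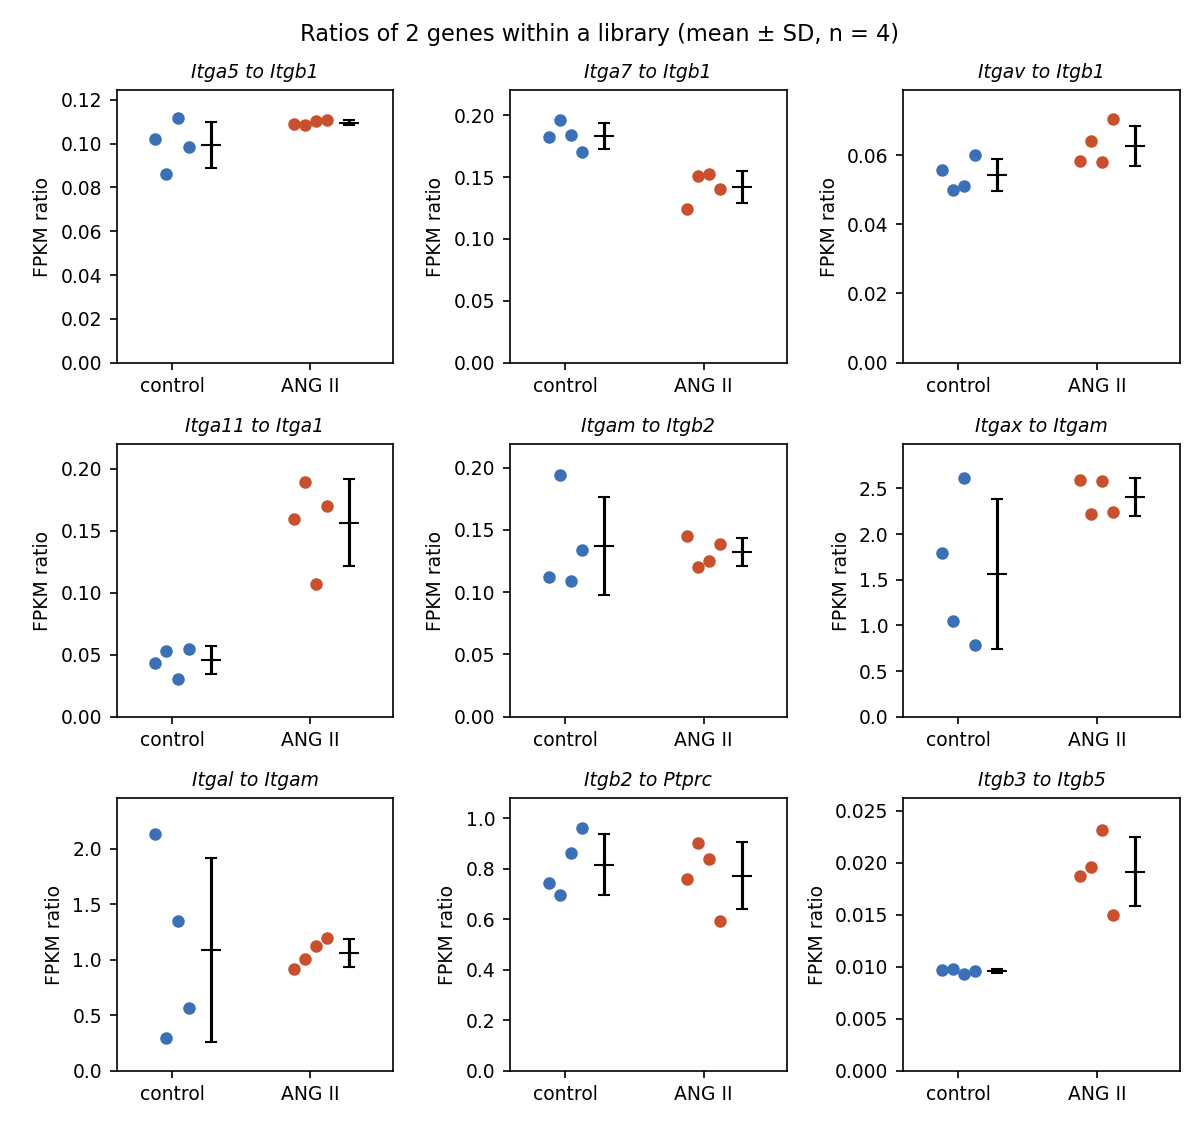
FPKM ratio of 2 genes within each library for the 9 ratios compared, with mean and SD (n = 4 each). The groups part for Itga7 to Itgb1 (lower in ANG II) and for Itga11 to Itga1 and Itgb3 to Itgb5 (higher in ANG II), and overlap for the other 6.

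The ligands of the matrix chains were read from gene lists. Of 15 fibrillar and basement membrane collagens 12 were called higher and 0 lower, led by Col1a1 with a log2 fold change of 3.25 (SE 0.164) and Col1a2 with 3.13 (SE 0.140), and with a median of 1.46. Of 12 RGD and related ligands 9 were higher, led by Postn (periostin, 4.30, SE 0.196) and Spp1 (osteopontin, 3.76, SE 0.382), with a median of 1.78. Of 10 laminin chains tested 4 were higher, led by Lamc1 (0.81, SE 0.0754) and Lamb1 (0.60, SE 0.0752), with a median of 0.41. The ligand lists thus held 80%, 75% and 40% called members, where 15.4% of all genes were called. Beside them stand 2 of 4 collagen receptors, 2 of 4 RGD receptors and 0 of 3 laminin receptors called. Of 10 fibroblast markers 8 were higher (Postn and Col1a1 among them, on which the ligand lists also draw) and Gsn, the most abundant in control, was not called, at 819 ± 97.4 and 587 ± 122 FPKM (SD, n = 4 each).

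For the leukocyte chains, 9 of 15 counter-receptor genes could be tested and 5 were higher, where 14% of all genes were, led by C3 (a complement protein whose fragment binds CD11b and CD11c, 1.49, SE 0.248) and Thy1 (1.38, SE 0.200), while Icam4, Madcam1, Fga, Fgb and Fgg were at 0 in all libraries. Against the same 14%, 13 of 16 adaptors that act on leukocyte integrins were higher and 0 lower, led by Fyb (1.88, SE 0.233) and Tyrobp (1.43, SE 0.140), with a median of 1.16. Of 36 tested genes of the general activation and adhesion machinery 12 were higher (33.3%, also beside 14%) and 0 lower, led by Actn1 (alpha-actinin, 1.39, SE 0.119) and Tns3 (tensin, 1.13, SE 0.125), with a median of 0.37. The most abundant of them in control, Tns1, was at 338 ± 22.7 and 364 ± 39.0 FPKM (SD, n = 4 each) and was not called. Ilk, the integrin-linked kinase that every cell of the heart uses, was listed at 0 in all control libraries and at no more than 0.246 FPKM in ANG II, so its listed value is not read as its expression.

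Whether strand was used in counting is not given in the sources used here, and parts of some genes lie under genes on the opposite strand: 16.9% of the exon length of Itgb1bp1, 12.4% of Itgad, 8.59% of Itgb3bp, 8.04% of Itga4, 7.66% of Itgb4, 5.90% of Itgav and 5.05% of Itga8. Reads there cannot be assigned with certainty. The cardiomyocyte markers, whose sums are given with Itgb1bp2, were abundant in every library. That list marks heart muscle and cannot tell the left ventricle from other chambers. Atrial markers varied widely, with sums of 1.15 to 48.8 FPKM in control and 52.5 to 230.5 FPKM with ANG II. Of the 3 tested 1 was called, Sln (1.69), beside 14% of all genes called higher, and Myl4, the most abundant in control, was not. The median log2 fold change of the 3 was 2.23. The groups did not overlap, with ANG II higher, at 2 of them (28.7% of all genes). Erythroid markers summed to 487 FPKM in control 1, 96.8 to 162 FPKM in the other control libraries and 581 to 2083 FPKM in ANG II, highest in ANG II 2, with 5 of 5 called higher, beside 14% of all genes (Hbb-bt at 2.72, Hbb-bs at 2.70). The parts of residual blood and of atrial tissue in the integrin values were not tested.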

How the data were processed

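RNA-seq libraries were made from poly(A)-enriched left ventricle RNA. For the 8 libraries, the authors deposited 1 table of FPKM values, without pooling. The submitters' processing notes name Bowtie2, HISAT and RSEM; versions, annotation, strand setting and genome build are not given in the sources used here. Positions and transcript lengths came from GENCODE M21 (GRCm38), in which 55141 of 55679 gene IDs were found, and promoters from RefSeq (GRCm38.p6).

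Values were tested with limma 3.58.1 in R 4.3.3 on log2(FPKM + 1) (lmFit, then eBayes with trend), without covariates, for genes whose mean over libraries reached 0.1 FPKM. P-values were two-sided and Benjamini-Hochberg adjusted over all genes tested. The study names limma and both thresholds but neither the base of the logarithm, a pseudocount nor a filter; base 2, 1 and 0.1 FPKM were choices made here. Fold changes on log2(FPKM + 1) understate those of low genes. Whole reads were recovered from the steps of the deposited FPKM values: times mean transcript length, 97.6 to 98.1% of values under 60 fragments of genes with several exons, and 99.2 to 99.3% of those with 1 exon, were whole within 0.05. Intervals and floors (3 fragments) cover counting error only. Ratios were compared by exact permutation over 70 allocations. In data simulated for ANG II against control, limma recovered 73 of 132 genes from 1 FPKM changed 1.5-fold, 141 of 145 changed 2-fold and 143 of 145 changed 3-fold. Over all levels it recovered 74, 142 and 151 of 200, so few genes under 1 FPKM, with 5, 4 and 8 false calls, and it called 0 when none was changed. Every simulated gene had the same dispersion (spread between libraries beyond counting error), 0.00437, a median over well covered genes. Some chains varied far more in control, such as Itgal at 0.900 ± 0.765 and Itgb7 at 1.96 ± 1.46 FPKM (SD, n = 4 each). The simulated recovery and false calls do not carry over to such genes. No 2 libraries agreed within sampling noise (chi-square per gene at least 6.95). The study describes its sequencing samples as biological replicates, with more per group than the 4 libraries read here. The labels do not say which mouse a library came from.

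All Itga and Itgb genes are named, with the 2 called members of each other list that changed most (at least 1 FPKM in a group), the most abundant control gene of each marker list and both genes of each ratio. Genes named outside this rule (Ppbp, Gp1ba, Gp1bb, Elane, S100a8, Retnlg, Cd163, Lyve1, Timd4, Ilk, Gm42957, Gm49368, Tnnc1, Mybpc3, Ryr2, Abcc9, Acta2, Kcnj8, Myh11, Tagln and the list members at 0) were chosen after their values were seen. The members and lists were chosen with earlier results of these data known. Alternatives changed the pseudocount, filter, scaling, variance trend, replicate block, threshold, libraries and scale of the values (voom). Python 3.11.15, pandas 2.3.3 and scipy 1.17.1 were used.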

Additional observations from a re-analysis of the deposited data

Results flagged for a closer look

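Some values stood apart from the other 3 libraries of their group by Dixon's criterion for 4 values at the 95% level. There were 10 such values among 142 groups of 4 examined, and chance gives about 1 in 20. Among the integrin chains, Itga2b was at 11.6 FPKM in ANG II 2 against 1.98 to 2.51 FPKM in the rest of its group, Itgb5 was at 129 FPKM in ANG II 3 against 179 to 179.9 FPKM, and Itga8 was at 6.60 FPKM in ANG II 3 against 5.13 to 5.21 FPKM. Itgb1 was at 297 FPKM in control 2 against 271 to 274 FPKM, and Itgb7 at 4.13 FPKM in control 1 against 1.02 to 1.39 FPKM. Itgb2l, with 1 fragment in each of 2 libraries, reached 0.0342 FPKM in control 1 and, in ANG II 2, 0.0310 FPKM, against 0 in the rest. Among the other named genes, C3 was at 298 FPKM in ANG II 3 against 170.2 to 192 FPKM, Ighm, an immunoglobulin heavy chain gene, at 11.1 FPKM in ANG II 3 against 6.99 to 7.26 FPKM, and Vwf at 45.4 FPKM in ANG II 2 against 34.1 to 34.9 FPKM. Causes were not tested.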

How the results depend on the processing

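Of the 16 called genes, 11 kept their call in every alternative at the same threshold, 5 (Itga2, Itga5, Itgal, Itgb1 and Itgb8) lost it in at least 1 of them, and 0 changed sign. The count of called genes, with the share of all genes called under the same alternative, was 17 (19.7%) with a pseudocount of 0.1, 15 (9.81%) without a filter, 15 (20.7%) from 1 FPKM, 12 (12.8%) with median-of-ratios scaling, 12 (12.4%) with quantile normalization, 15 (13%) without mitochondrially encoded and the 10 most abundant genes, 16 (15.3%) without a variance trend, 18 (21%) with voom and 20 (33.3%) by adjusted p alone. With control 1 and ANG II 2 both left out, chosen after the data had been seen, it was 16 (16.1%). Leaving out 1 library gave 15 to 16 (alpha chains 7 to 8, beta chains 7, leukocyte class 5 to 6, matrix class 9), where 14.3 to 16% of all genes were called. Median-of-ratios scaling, which brings the median of all genes from 0.15 to 0.0040 (quantile normalization: -0.04), left 5 alpha chains called. With a fold change threshold of 1 on the log2 scale, 7 genes were called (2 alpha and 4 beta chains; 3 of the leukocyte and 3 of the matrix class; 4.11% of all genes), a stricter threshold by construction. Over all genes, the share of higher among called genes was 90.8% as deposited, 67.5% with median-of-ratios scaling and 58.9% with quantile normalization.

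Signs turned only at genes that were not called. With median-of-ratios scaling the log2 fold change was -0.0381 for Itga1, -0.11 for Itga3, -0.0211 for Itga7, -0.0908 for Itga9 and -0.0968 for Itgb3bp. With quantile normalization it was -0.0169 for Itga1, -0.0235 for Itga10, -0.24 for Itga3, -0.0101 for Itga8, -0.0355 for Itga9 and -0.24 for Itgb3bp. Without mitochondrially encoded and the most abundant genes it was -0.0459 for Itga3, -0.0103 for Itga9 and -0.0405 for Itgb3bp. For Itgb3bp it ran from -0.0144 to 0.117 with 1 library left out, at -0.0144 without control 2 and -0.000548 without ANG II 3. A pseudocount of 1 on both genes moved the log2 ratio difference to 1.19 for Itga11 to Itga1, to -0.50 for Itgam to Itgb2 and to 0.17 for Itgb3 to Itgb5, which shrinks low genes by construction.

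Leaving out 1 library at a time, log2 ratio differences ranged from 1.61 to 1.96 for Itga11 to Itga1, 0.0790 to 0.204 for Itga5 to Itgb1, -0.40 to -0.31 for Itga7 to Itgb1, -0.16 to 0.79 for Itgal to Itgam, -0.12 to 0.16 for Itgam to Itgb2, 0.15 to 0.26 for Itgav to Itgb1, 0.50 to 1.078 for Itgax to Itgam, -0.16 to 0.0365 for Itgb2 to Ptprc and 0.88 to 1.09 for Itgb3 to Itgb5; with 3 against 4 libraries the exact permutation test cannot go below 0.0571.

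Replicate numbers are shared between groups, but nothing ties them to litters or days. Deviations of same-numbered libraries correlated at -0.016, 0.062, -0.032 and -0.0093, and 1 of the 4 pairs had its best partner under its own number. With the replicate block 16 genes were called (8 alpha and 7 beta chains, 6 of the leukocyte and 9 of the matrix class), where 15.3% of all genes were, and it changed no integrin call.

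Depth limits the lowest genes: Itgae, Itgad and Itgb2l rested on 40 fragments or fewer per library, and voom gave larger fold changes than log2(FPKM + 1) at low genes such as Itga2.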

Other observations

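The marker lists described least above are given as values, by limma calls. Of 10 endothelial markers 2 were called higher and 0 lower, a share near the 15.4% of all genes called, Vwf with a log2 fold change of 0.56 and Pecam1 with 0.52, and their sums ran from 579.7 to 659 FPKM in control and 694 to 827 FPKM in ANG II (Fabp4, the most abundant in control, at 0.43, was not called). Of 9 smooth muscle and pericyte markers 3 were higher, led by Cnn1 (1.18) and Cspg4 (0.71), and 1, Abcc9 (-0.55), was lower, beside 14% and 1.41% of all genes, with Rgs5 the most abundant in control at 0.24. The 5 not called were Rgs5, Acta2 (-0.20), Kcnj8 (-0.14), Myh11 (0.04) and Tagln. Tagln held at most 1 fragment per library in control and 6 in ANG II, a value not read here as its expression.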
